A study of Mus musculus with 12 samples.

Results

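The endocannabinoid genes described here are 9 genes chosen by name, out of 55401 gene IDs in the deposited tables, for making, breaking down or sensing endocannabinoids. Endocannabinoids are signalling lipids that cells form on demand from membrane phospholipids. 2-arachidonoylglycerol (2-AG) is made by the diacylglycerol lipases Dagla and Daglb and hydrolysed by Mgll, Abhd6 and Abhd12, and anandamide and other N-acylethanolamines (NAEs) are made by Napepld among other routes and hydrolysed by Faah and Naaa. Cnr2 encodes the cannabinoid receptor found mainly on immune cells. In macrophages and microglia Daglb is known as the main 2-AG synthase, and the arachidonic acid freed from 2-AG can feed prostaglandin synthesis. Fabp5, the gene targeted in the study, codes for a cytosolic lipid chaperone, one of the fatty acid binding proteins, that ferries anandamide and other lipids to the enzymes that degrade them.

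The study asked how loss of Fabp5 in myeloid cells bears on inflammatory pain, and measured RNA of CD45+ CD11b+ Ly6G- cells sorted from hind paws of adult mice 4 h after an injection of saline or of 1% carrageenan, a seaweed polysaccharide that causes acute inflammation. All animals carried the floxed Fabp5 allele. Flox mice had no Cre, and cKO mice had in addition LysM-Cre, a Cre recombinase expressed from the Lyz2 locus in macrophages, monocytes and neutrophils. Each of the 4 groups (Flox saline, Flox carrageenan, cKO saline and cKO carrageenan) had 3 libraries, and each library pooled cells of 3 or 4 mice, so that an SD below describes the spread of pools. No group with Cre alone was analysed here, so the effects of Cre, of its Lyz2 allele and of Fabp5 loss cannot be told apart.

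Libraries are named by group and numbered 1 to 3 in the order of the mouse numbers in their labels. The Flox libraries held 111925 to 994161 reads on genes and the cKO libraries 508407 to 2987015. Values are normalised read counts on a scale common to the 12 libraries, on which 1 read was worth 5.55 in Flox saline 1, the shallowest, and 0.255 in cKO saline 2, the deepest. The markers used for the sort were in keeping with the labels: Ptprc (CD45) had group means of 258 to 551, Itgam (CD11b) of 323 to 341, and Ly6g 4 reads in all 12 libraries. RNA of other cell types was present as well. Summed over 7 genes, markers of keratinocytes and muscle had group means from 431 (Flox saline) to 1017 (cKO saline). Fabp5 itself was at 5.55, 35.2 and 22.6 in Flox saline and at 44.5, 98.6 and 34.2 in Flox carrageenan. It was at 6.12, 4.08 and 11.2 in cKO saline and at 6.15, 11.6 and 23.2 in cKO carrageenan. The transcript was thus lower in cKO carrageenan than in Flox carrageenan without overlap, as 6.19% of all genes were. It was still detected in every cKO library. Its log2 difference between cKO and Flox was -2.06 ± 0.53 (SE) in carrageenan (limma adjusted p = 0.497) and -1.20 ± 0.79 in saline (adjusted p = 0.683). Averaged over treatments it was -1.63 ± 0.50 with limma (adjusted p = 0.210), and passed the threshold on whole reads, at -2.00 ± 0.41 with edgeR (adjusted p = 0.0348) and -1.96 ± 0.43 with DESeq2 (adjusted p = 0.00229). In carrageenan it passed without cKO carrageenan 3 (-2.50 ± 0.51, limma adjusted p = 0.0346) and with edgeR with no filter on low values (adjusted p = 0.00119). Which part of the gene is deleted is not given in the sources used here, and 3′ reads outside that part would not report the deletion.

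A promoter window is shown for Naaa, the endocannabinoid gene with the most reads. The window holds 300 bases, 250 before and 50 after the start of the gene, 5′ to 3′ on the gene's strand (chr5:92278132-92278431, minus strand), from RefSeq on GRCm38.p6, and the capitals mark a GC box (GGGCGG, here on the opposite strand).
Naaa: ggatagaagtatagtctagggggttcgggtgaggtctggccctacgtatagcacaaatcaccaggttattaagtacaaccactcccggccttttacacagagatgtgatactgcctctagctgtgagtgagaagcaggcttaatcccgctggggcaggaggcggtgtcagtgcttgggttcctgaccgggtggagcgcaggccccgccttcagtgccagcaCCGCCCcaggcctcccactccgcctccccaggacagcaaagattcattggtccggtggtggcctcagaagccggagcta
GGGCGG on either strand is in 35.7% of 32851 promoters of that table, so the match is common. Faah, Mgll and Abhd6 also held it in their windows. A match is a description of these letters in a window, not a bound site.

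In sorted paw myeloid cells, carrageenan was accompanied by lower Abhd12, a 2-AG hydrolase, in both genotypes, though in cKO the call was lost when libraries were paired by mouse number (adjusted p = 0.0524). Daglb, a 2-AG synthase, was lower when the genotypes were averaged. Naaa, the NAE hydrolase with the most reads of the 9 genes, was lower by less and did not pass the test. The other genes had few reads, Faah and Napepld almost none. Between cKO and Flox 5 of the 9 were tested in each treatment and 6 in the average, and none of those passed the threshold. Genes were tested where 3 or more libraries reached a value of 5, which Dagla, Daglb, Naaa, Mgll, Abhd12 and Cnr2 did in the fits of all 12 libraries, and Abhd6, Napepld and Faah did not.

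**Figure D1:**
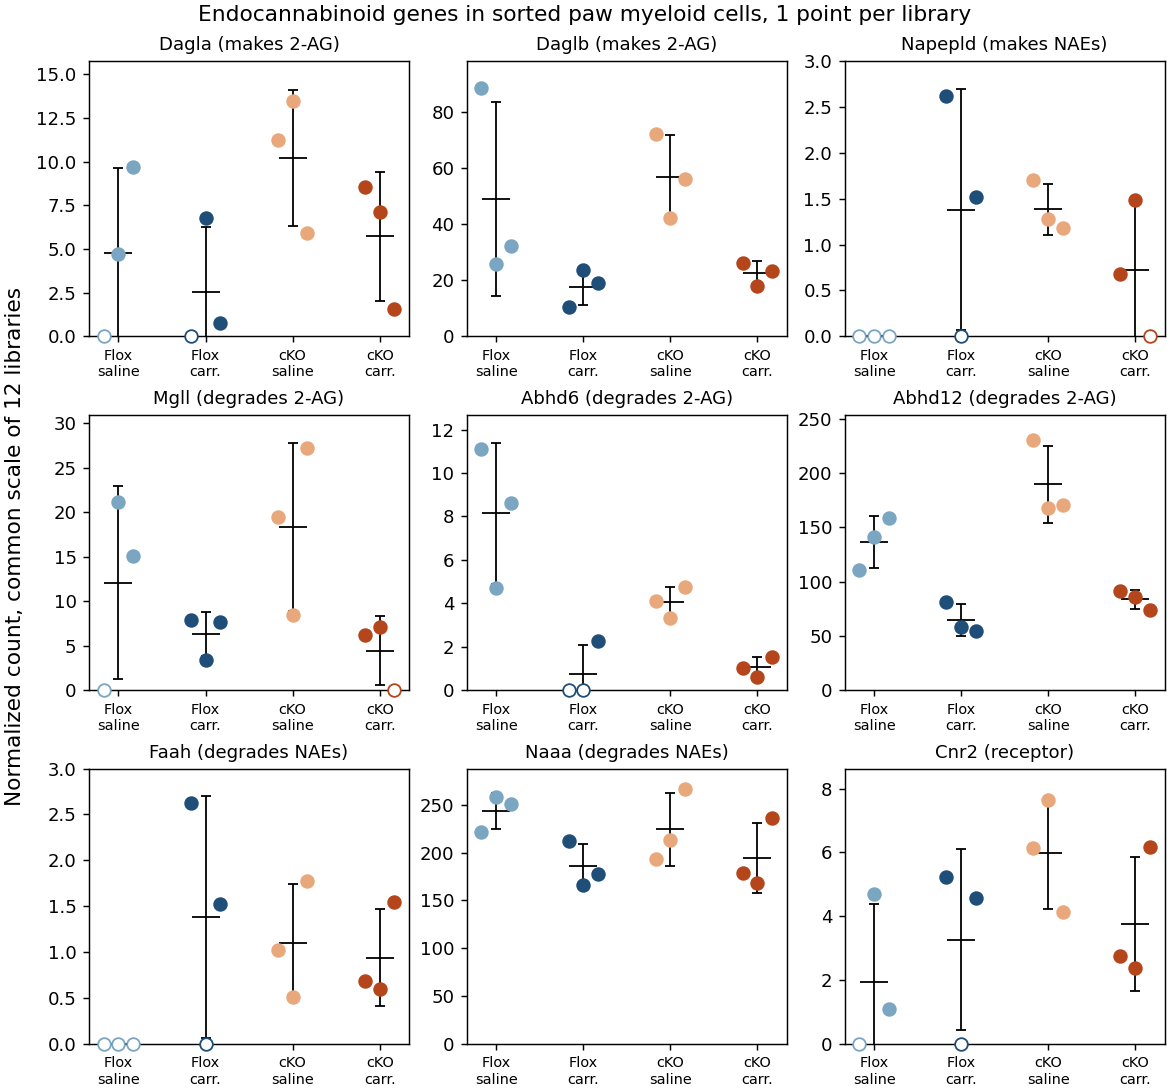
Normalised read count on the common scale (y axis, a separate range per gene) of the 9 endocannabinoid genes in the 4 groups, with 1 point per library, open points at 0 reads, and a bar at the mean with 1 SD (cut at 0, n = 3). Abhd12 lies between 111 and 230.3 in the 6 saline libraries and between 54.7 and 91.0 in the 6 carrageenan libraries (carr.), whereas the points of Naaa overlap between treatments in cKO.

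Abhd12 (chr2:150832493-150904741, minus strand) encodes a membrane serine hydrolase that acts on 2-AG and on lysophosphatidylserine. Its values in Flox were 111, 141 and 159 in saline and 81.2, 57.8 and 54.7 in carrageenan, resting on 20 to 147 and 17 to 72 reads. In cKO they were 230.3, 168 and 170.4 in saline and 91.0, 85.7 and 74.1 in carrageenan, resting on 288 to 677 and 48 to 289 reads. All 6 carrageenan libraries thus lay below all 6 saline libraries. Group means fell from 137 ± 24.0 to 64.6 ± 14.5 in Flox and from 190 ± 35.2 to 83.6 ± 8.61 in cKO (SD, n = 3).

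The log2 difference of Abhd12 was -1.08 ± 0.26 (SE) in Flox, a ratio of 0.474, with a limma adjusted p of 0.0217 over 10240 genes. It was -1.16 ± 0.26 in cKO, a ratio of 0.447, with an adjusted p of 0.0267. Abhd12 was the 1 endocannabinoid gene of 6 tested that passed the threshold in each genotype, where 7.17% of all genes passed in Flox and 2.65% in cKO (2.74% and 0.547% as lower). Averaged over genotypes the difference was -1.12 ± 0.18 (adjusted p = 0.000992), and it passed the threshold in all 12 fits that left out 1 library and in all 10 other settings tried. The difference of the genotypes' responses was -0.11 ± 0.37 (adjusted p = 0.981, 95% interval -0.91 to 0.69).

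The calls within 1 genotype were less secure. In Flox the call of Abhd12 was lost without saline 2 (adjusted p = 0.0608), saline 3 (0.0504), carrageenan 2 (0.0728) or carrageenan 3 (0.0683), with log2 differences of -0.96 to -1.05. In cKO it was lost without saline 1 (0.176), saline 2 (0.0610), saline 3 (0.0806), carrageenan 1 (0.0528), carrageenan 2 (0.0964) or carrageenan 3 (0.102), with differences of -1.02 to -1.24. Blocking on the mouse number range, which pairs the cKO libraries, gave an adjusted p of 0.0524 in cKO. With no filter on low values the adjusted p was 0.0512 in Flox and 0.0626 in cKO.

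Abhd6 (chr14:8002902-8056763, plus strand) encodes a monoacylglycerol lipase that degrades 2-AG at the inner face of the plasma membrane. It had 2, 2 and 8 reads in Flox saline and 0, 0 and 3 in Flox carrageenan, and 12, 13 and 8 reads in cKO saline against 3, 2 and 1 in cKO carrageenan. On the common scale its saline libraries ranged from 4.69 to 11.1 in Flox and 3.31 to 4.73 in cKO, and its carrageenan libraries from 0 to 2.28 and from 0.593 to 1.54. The ranges of saline and carrageenan did not overlap in either genotype, at a depth of 13 reads or fewer per library. Of all tested genes, among which Abhd6 was not, 9.97% in Flox and 17% in cKO were lower without overlap. Over the reads of a group, carrageenan over saline was 0.193 in Flox (95% interval 0.0349 to 0.713) and 0.224 in cKO (0.0767 to 0.541), intervals that cover counting error only.

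Abhd6 was below the filter on the common scale and entered no test there. With the scale set by library totals it did enter, but through its saline libraries, the group where it is high, so the calls it gained there support nothing. With no filter its averaged log2 difference was -1.93 ± 0.53 (adjusted p = 0.0692) with limma and -2.26 ± 0.68 (adjusted p = 0.0164) with edgeR on whole reads, the latter chosen after seeing the data.

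Mgll (chr6:88724412-88828360, plus strand) encodes monoacylglycerol lipase, the main 2-AG hydrolase of brain. Its values were 0, 21.1 and 15.1 in Flox saline and 7.86, 3.40 and 7.60 in Flox carrageenan. In cKO they were 19.4, 8.41 and 27.2 in saline and 6.15, 7.11 and 0 in carrageenan. The groups overlapped in Flox through saline 1, which had no read, and did not overlap in cKO. The log2 difference was -0.03 ± 1.10 in Flox (adjusted p = 0.991) and -2.18 ± 1.10 in cKO (adjusted p = 0.538), and -1.10 ± 0.78 averaged over genotypes (adjusted p = 0.424). The value in Flox rested on saline 1, without which it was -1.44 ± 0.83 (adjusted p = 0.321), and the averaged difference was then -1.81 (adjusted p = 0.0399). On whole reads the difference in Flox was -1.07 ± 0.80 with edgeR (adjusted p = 0.522) and -1.05 ± 0.82 with DESeq2 (adjusted p = 0.510), and the pooled reads had a ratio of 0.469 (95% interval 0.223 to 0.951, counting error only). DESeq2 on whole reads gave an averaged difference of -1.43 ± 0.53 (adjusted p = 0.0401). Most alternatives did not pass: the averaged difference of Mgll passed in 1 of 12 fits that left out 1 library (limma adjusted p 0.0399 to 0.712). It passed in 2 of 9 other settings.

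Daglb (chr5:143464584-143505942, plus strand), the diacylglycerol lipase known from macrophages, had values of 88.8, 25.8 and 32.4 in Flox saline and 10.5, 23.8 and 19.0 in Flox carrageenan. In cKO it had 72.1, 42.3 and 56.2 in saline and 26.3, 17.8 and 23.2 in carrageenan. The carrageenan libraries lay below the saline libraries of the same genotype, by a narrow margin in Flox, where 16, 11 and 30 reads in saline stood against 4, 7 and 25. The 6 carrageenan libraries overlapped with the 6 saline libraries, since cKO carrageenan 1 was above Flox saline 2.

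The log2 difference of Daglb averaged over genotypes was -1.28 ± 0.34 (SE), a ratio of 0.412, with a limma adjusted p of 0.0224. With Abhd12 this made 2 of the 6 tested genes that passed in the average, where 11.6% of all genes passed and 4.83% passed as lower. Within genotypes the difference was -1.27 ± 0.48 in Flox (adjusted p = 0.128) and -1.29 ± 0.48 in cKO (adjusted p = 0.252), where edgeR and DESeq2 on whole reads gave adjusted p of 0.0268 and 0.0160. The averaged call was lost with the mouse number block (adjusted p = 0.0525) and without Flox carrageenan 1 (0.0542), cKO saline 1 (0.0787), cKO saline 3 (0.0547) or cKO carrageenan 2 (0.0628). The value in Flox rested partly on saline 1, without which it was -0.74 ± 0.41 (adjusted p = 0.293).

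Dagla (chr19:10245265-10304877, minus strand), the other diacylglycerol lipase and the main 2-AG synthase of neurons, had 0, 2 and 9 reads in Flox saline and 0, 2 and 1 in Flox carrageenan. In cKO it had 33, 53 and 10 reads in saline and 25, 24 and 1 in carrageenan, or 11.2, 13.5 and 5.92 against 8.55, 7.11 and 1.54 as normalised counts. Saline and carrageenan overlapped in both genotypes. The log2 difference was -0.72 ± 0.98 in Flox (adjusted p = 0.697) and -0.88 ± 0.98 in cKO (adjusted p = 0.958).

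Naaa (chr5:92257659-92278170, minus strand) encodes a lysosomal amidase of macrophages that prefers palmitoylethanolamide, an anti-inflammatory NAE. It had values of 222, 258 and 251 in Flox saline and 212, 167 and 178 in Flox carrageenan. In cKO it had 193, 214 and 266 in saline and 178, 168 and 236 in carrageenan. The Flox groups did not overlap, at 244 ± 19.1 against 186 ± 23.8 (SD, n = 3), and the cKO groups did. The log2 difference was -0.40 ± 0.23 in Flox (adjusted p = 0.315), -0.21 ± 0.23 in cKO (adjusted p = 0.956) and -0.30 ± 0.16 averaged over genotypes (adjusted p = 0.277, 95% interval -0.65 to 0.04).

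Faah (chr4:115967145-116017926, minus strand) encodes the main anandamide hydrolase of brain and liver, and Napepld (chr5:21662901-21701396, minus strand) a phospholipase D that releases NAEs from membrane precursors. Faah had 0 reads in all Flox saline libraries, 1, 0 and 2 in Flox carrageenan, 3, 2 and 3 in cKO saline and 2, 2 and 1 in cKO carrageenan. Napepld had 0 reads in all Flox saline libraries, 1, 0 and 2 in Flox carrageenan, 5, 5 and 2 in cKO saline and 2, 5 and 0 in cKO carrageenan. Both transcripts were thus close to the limit of detection in every group. A group count of 0 in Flox saline allows up to 3 reads, or 1.96 on the common scale, which is above the pooled level of either gene in cKO saline (0.935 for Faah and 1.40 for Napepld), so a genotype difference was not detectable at this depth.

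Cnr2 (chr4:135895394-135920207, plus strand), the receptor, had 0, 2 and 1 reads in Flox saline and 2, 0 and 6 in Flox carrageenan. In cKO it had 18, 30 and 7 reads in saline and 8, 8 and 4 in carrageenan, or 6.12, 7.64 and 4.14 against 2.74, 2.37 and 6.18 as normalised counts. The treatments overlapped in both genotypes. The log2 difference was 0.52 ± 0.85 in Flox (adjusted p = 0.753) and -0.60 ± 0.85 in cKO (adjusted p = 0.990). The difference of the genotypes' responses was -1.16 ± 1.20 (adjusted p = 0.967).

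Counted over the 6 tested genes, the median log2 difference of carrageenan from saline was -0.56 in Flox, -1.02 in cKO and -0.95 averaged over genotypes, and the medians of all 10240 genes were 0.10, -0.07 and 0.02. The difference was below 0 for 5 of 6 in Flox and 6 of 6 in cKO, as for 45.8% and 55.3% of all genes. In each genotype 3 of the 6 had carrageenan libraries all below saline libraries (Daglb, Naaa and Abhd12 in Flox, and Daglb, Mgll and Abhd12 in cKO), as had 9.97% of all genes in Flox and 17% in cKO. Over both genotypes Abhd12 alone did, as 3.11% of all genes. Scaling by library totals moved the median of all genes to -0.05 in Flox, -0.23 in cKO and -0.13 in the average, and the share of called genes that were higher from 61.7% to 48.7% in Flox, from 79.3% to 65.1% in cKO and from 58.3% to 45.5% in the average. Abhd12 and Daglb were lower in carrageenan on each of the 3 scales.

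**Figure D2:**
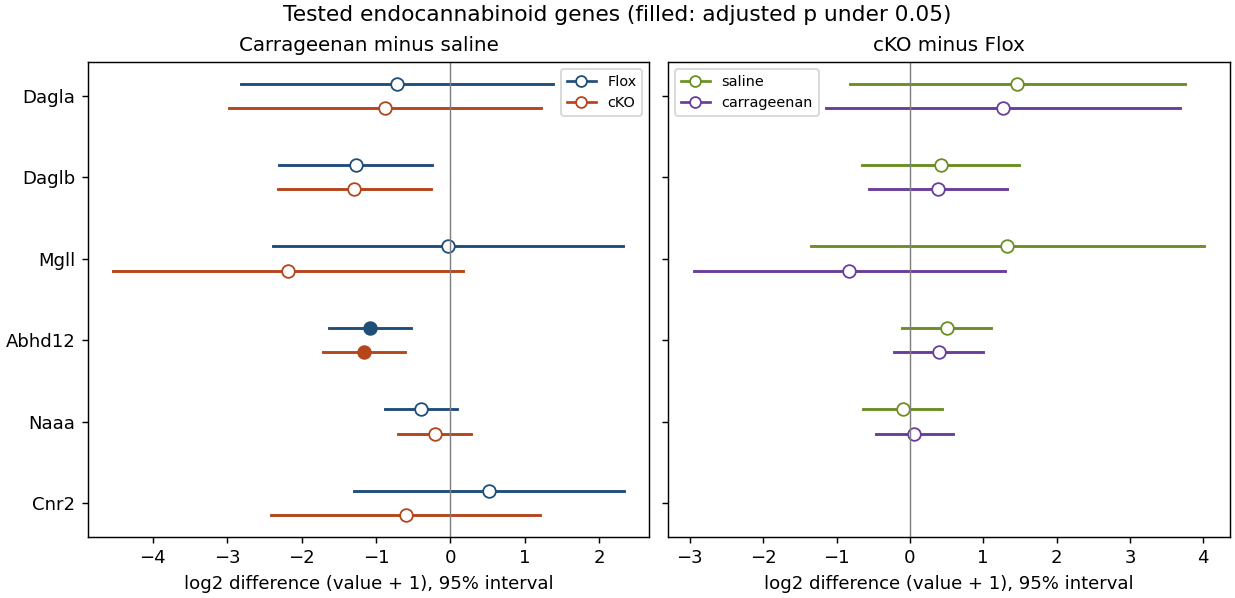
Log2 difference (x axis, on log2 of the value plus 1) of the tested endocannabinoid genes, with 95% intervals from limma, for carrageenan minus saline in Flox and cKO (left) and for cKO minus Flox in saline and carrageenan (right). Filled points passed an adjusted p of 0.05, which in these 4 comparisons only Abhd12 did, on the left, at -1.08 in Flox and -1.16 in cKO, from a fit without pairing; with pairing the cKO call was lost (adjusted p = 0.0524).

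A ratio of reads within a library does not depend on the scale. The ratio of Abhd12 to Naaa reads, chosen after their values were seen, was 0.5, 0.545 and 0.631 in Flox saline and 0.383, 0.347 and 0.308 in Flox carrageenan. In cKO it was 1.19, 0.788 and 0.640 in saline and 0.511, 0.510 and 0.314 in carrageenan. Carrageenan libraries thus had less Abhd12 per Naaa read than saline libraries within each genotype, without overlap. The ratio of Daglb to Naaa reads did not overlap in cKO (0.374, 0.198 and 0.211 in saline against 0.148, 0.106 and 0.0980 in carrageenan) and overlapped in Flox.

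Markers of resident macrophages, such as Cd163, Mrc1 and Folr2, moved in the same direction as Abhd12 and Daglb. Of 18 such markers, 13 fell in Flox, 7 in cKO and all 18 in the average of the genotypes, with medians of -1.73, -1.37 and -1.50. In counts of markers here, fell and rose mean passing the limma threshold. Of all genes, 2.74% passed as lower in Flox, 0.547% in cKO and 4.83% in the average. As higher, 4.42%, 2.1% and 6.77% of all genes passed. Summed over the 18, the level lay at 13157 to 18181 in saline against 4366 to 5643 in carrageenan for Flox, and at 18127 to 24660 against 5708 to 12288 for cKO. Markers of inflammatory monocytes, such as Ly6c2 and Ccr2, moved the other way: 9 of 12 rose in Flox and 7 in cKO, with sums of 1055 to 1926 against 6341 to 8239 in Flox and 855 to 1495 against 2605 to 9165 in cKO. Of 14 neutrophil markers 7 were tested, and 5 rose in Flox and 4 in cKO, with Ngp and Camp at 0 reads and sums of at most 77.7 in saline and 730.3 in carrageenan. Of 7 fibroblast markers 3 rose in Flox, 1 in cKO and 4 in the average, with sums of 55.5 to 632 in saline against 901 to 1423 in carrageenan for Flox and 305 to 699 against 833 to 1305 for cKO. Of 5 endothelial markers 3 were tested, and 2 rose in Flox, 0 in cKO and 2 in the average, with sums of at most 57.8. Of 8 dendritic cell markers 6 were tested, and 2 rose in the average and 0 in either genotype alone. Of 6 B cell markers 1 was tested, and it fell in cKO (-2.09) and in the average (-1.63), without passing in Flox (-1.16). No tested marker of mast cells, T and NK cells, keratinocytes and muscle, or red cells passed. The part of these cell types in the results on Abhd12 and Daglb was not tested. In bulk samples such as these, fewer cells of a type and less RNA per cell cannot be told apart.

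**Figure D3:**
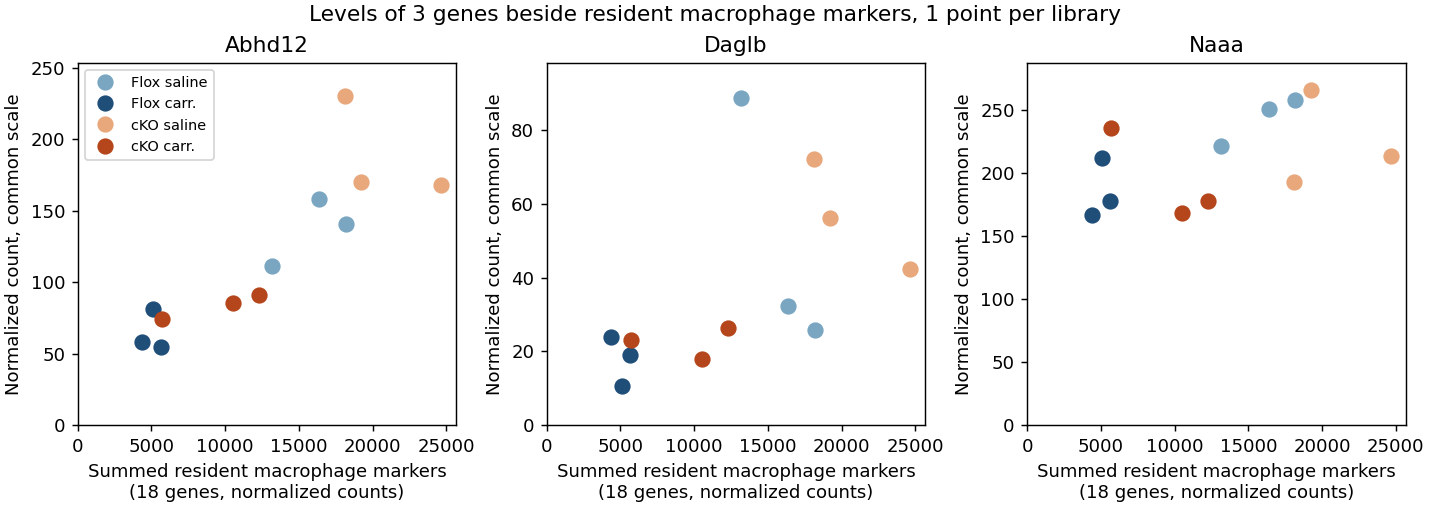
Normalised read count of Abhd12, Daglb and Naaa (y axis) against the summed normalised count of 18 resident macrophage markers (x axis), with 1 point per library coloured by group. The carrageenan libraries lie at 4366 to 12288 on the marker sum and the saline libraries at 13157 to 24660, Abhd12 is low where the sum is low, and Naaa spans 167 to 236 in carrageenan and 193 to 266 in saline.

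Across the 12 libraries the genes whose levels ran most like those of Abhd12, among 5533 genes with a mean of at least 20, were Clec10a, a C-type lectin of macrophages and dendritic cells (Pearson r = 0.960), Dhrs3 (0.955) and Adam15 (0.949). For Daglb they were Myo18a (0.940), Nisch (0.926) and Wdfy2 (0.924). For Naaa they included Tmem109 (0.862) and Cyb5r3 (0.842). These coefficients describe log2 values of libraries that share treatment and depth, and carry no test.

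The comparison of cKO with Flox asks whether loss of the carrier Fabp5 was accompanied by a change in the enzymes and the receptor. In saline no endocannabinoid gene of 5 tested passed the threshold with limma, edgeR or DESeq2, none had an unadjusted p under 0.05, and of all 9371 genes 0 passed with limma (5.42% at an unadjusted p under 0.05), 0 with edgeR and 22 with DESeq2. Abhd12 was higher in cKO saline than in Flox saline without overlap, as 10.4% of all genes were, by 0.50 ± 0.26 on the log2 scale (adjusted p = 0.683, 95% interval -0.10 to 1.10). The median log2 difference of all genes in that comparison was 0.25. Daglb differed by 0.42 ± 0.47 (95% interval -0.65 to 1.49) and Naaa by -0.10 ± 0.24 (-0.64 to 0.44). Dagla and Mgll, at low counts, differed by 1.47 ± 1.00 and 1.33 ± 1.17, with intervals that reached from below 0 to 3.75 and 4.01.

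In carrageenan likewise no endocannabinoid gene of 5 tested passed with limma or edgeR, and neither did Naaa and Abhd12, the 2 that DESeq2 gave an adjusted p. With limma none had an unadjusted p under 0.05, and of all 9151 genes 0 passed with limma (9.8% at an unadjusted p under 0.05), 0 with edgeR and 7 with DESeq2. The log2 difference of cKO from Flox was 0.39 ± 0.27 for Abhd12 (adjusted p = 0.582, 95% interval -0.21 to 0.99), 0.38 ± 0.42 for Daglb (-0.56 to 1.32), 0.06 ± 0.24 for Naaa (-0.46 to 0.59), 1.27 ± 1.08 for Dagla and -0.82 ± 0.96 for Mgll. These intervals leave room for differences of either sign. Leaving out cKO carrageenan 3, the shallowest cKO library, raised the number of all genes called from 0 to 420, none of them an endocannabinoid gene.

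Averaged over treatments, Abhd12 was higher in cKO by 0.44 ± 0.19 (limma adjusted p = 0.294), with a 95% interval of 0.05 to 0.84, beside a median of 0.23 over all 10243 genes. It was the 1 endocannabinoid gene of 6 with an unadjusted p under 0.05, as 14.9% of all genes had, and none of the 6 passed after adjustment, as 0.00976% of all genes did. Cnr2 had 75 reads in the 6 cKO libraries and 11 in the 6 Flox libraries, with a difference of 1.03 ± 0.60 (adjusted p = 0.407). Genotype moved with depth, since a read was worth 0.760 to 5.55 in Flox and 0.255 to 1.54 in cKO, and the part of depth in these differences was not tested. Resident macrophage markers stood higher in cKO too, with median log2 differences of 0.39 in saline, 0.73 in carrageenan and 0.56 averaged over treatments. No single marker of that list passed between genotypes, and the part of these cells was not tested either. The responses to carrageenan differed between genotypes for none of the 6 genes (limma, none with an unadjusted p under 0.05, as for 2.38% of all genes). In the authors' deposited tables, which compare cKO with Flox, Abhd12 had a log2 fold change of 0.42 ± 0.27 in saline (adjusted p = 0.801) and 0.36 ± 0.29 in carrageenan (adjusted p = 0.664), and none of the endocannabinoid genes given an adjusted p there (4 in saline and 3 in carrageenan) was under 0.05.

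The surrounding pathway was described with 37 further genes in 5 lists, of which 25 passed the filter in the fits of carrageenan against saline. In each genotype 1 rose, 2 fell and 22 did not pass, where 7.17% of all genes passed in Flox and 2.65% in cKO. In the genotype comparisons none passed, where 0 of all genes did in saline, 0 in carrageenan and 0.00976% averaged over treatments. The gene that rose was Ptgs2, the inducible cyclooxygenase that makes prostaglandins from arachidonic acid and also oxygenates 2-AG and anandamide. It ranged from 14.1 to 96.0 in Flox saline and from 392 to 445 in Flox carrageenan, and from 27.9 to 48.2 in cKO saline and from 237 to 499 in cKO carrageenan. Its log2 difference was 3.44 ± 0.50 in Flox (limma adjusted p = 0.00142) and 3.23 ± 0.50 in cKO (adjusted p = 0.00327). Alox5, the lipoxygenase that starts leukotriene synthesis, fell by 1.83 ± 0.33 in Flox (adjusted p = 0.00427) and by 1.44 ± 0.33 in cKO (adjusted p = 0.0283), from group means of 226 and 216 to 62.6 and 85.4.

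Inpp5d, an inositol phosphatase of blood cells that has also been linked to a route of anandamide synthesis without Napepld, fell by 0.96 ± 0.25 in Flox (adjusted p = 0.0337) and by 1.16 ± 0.25 in cKO (adjusted p = 0.0244). It was the 1 of 7 tested genes of other NAE synthesis that passed (10 in the list, Hrasls5 at 0 reads), and the 7 had medians of -0.96 and -0.51. Of the lipid carriers 4 of 5 were tested and none passed. Fabp4, a relative of Fabp5, was higher after carrageenan by 2.40 ± 0.85 in Flox (adjusted p = 0.105) and 1.25 ± 0.85 in cKO (adjusted p = 0.778). It was higher without overlap in both genotypes, as 13% of all genes were in Flox and 12.6% in cKO. Of 8 other receptors and targets only Pparg and Ppard were tested, and neither passed. Cnr1, Trpv1 and Ppara had 1 read each and Gpr119 0 in all 12 libraries. None of 8 tested phospholipases and other lipases passed, the smallest unadjusted p being those of Pla2g4a (1.63 ± 0.56 in Flox, adjusted p = 0.0915) and Plcb1 (2.33 ± 0.84 in Flox, adjusted p = 0.109).

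**Figure D4:**
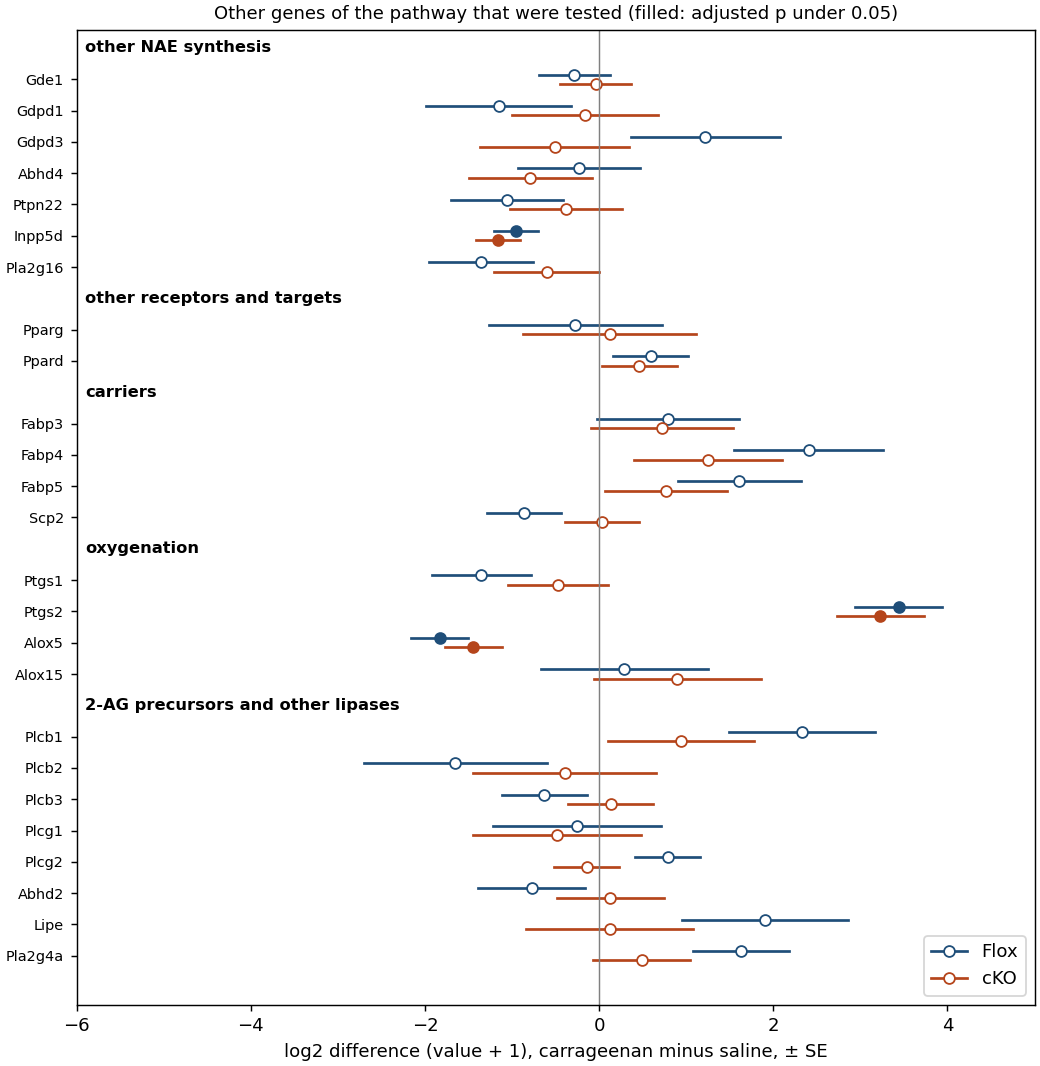
Log2 difference of carrageenan from saline (x axis, with 1 SE) for the 25 tested genes of the surrounding pathway, by list, in Flox and cKO. Filled points passed an adjusted p of 0.05, which Ptgs2 did as higher, at 3.44 and 3.23, and Alox5 and Inpp5d as lower.

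Between genotypes in saline the smallest unadjusted p among the surrounding genes was that of Scp2, a sterol carrier protein that also binds anandamide. It was lower in cKO (-1.14 ± 0.38, limma adjusted p = 0.683). Pla2g4a and Abhd4 followed, both higher in cKO (1.16 ± 0.70 and 1.32 ± 0.81, each with an adjusted p of 0.683). Averaged over treatments the smallest p were those of Fabp5, Gdpd1 (1.41 ± 0.59, adjusted p = 0.294) and Scp2 (-0.70 ± 0.30, adjusted p = 0.300). In carrageenan they were those of Fabp5, Plcb1 (-1.76 ± 0.62) and Lipe, the hormone-sensitive lipase (-0.96 ± 0.36), each with an adjusted p of 0.497. Each of these 3 was lower in the cKO carrageenan libraries than in the Flox carrageenan libraries without overlap, as 6.19% of all genes were. They were picked by p in this same comparison, so the lack of overlap adds no support. Gdpd3 was also lower without overlap, and Plcb3 was higher without overlap, as 8.87% of all genes were.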

How the data were processed

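RNA came from sorted paw cells of 12 pools of mice, with 3' mRNA libraries (Lexogen LUTHOR, with molecular identifiers) read on an Illumina NovaSeq, per the labels' protocols. Per the submitters' processing notes, cutadapt, STAR and the GRCm38 build were used; their versions, the read counter and the annotation were not stated. The deposited signal values are the authors' normalised counts, in which each library's reads were divided by 1 size factor, with saline and carrageenan in separate tables. The authors' deposited tables of cKO against Flox give, per the file headers, a log2 fold change with its SE, a test statistic (a score, not used here), a p-value and an adjusted p-value, with the adjusted p blank for most entries.

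Whole reads were recovered from the signal (100% of low values were whole multiples of 1 step, tolerance 0.001). A scale common to the 12 libraries came from median ratios to a reference over 6501 genes. Gene IDs were named and placed with GENCODE vM21, which gave 55141 of 55401 a symbol, and 121 entries that are not genes (0.170 to 2.23% of reads, nearly all a 28S ribosomal RNA) were left out. Every test was limma 3.58.1 (R 4.3.3), with its trend option, after adding 1 to each value and taking log2, which understates changes of low genes, with Benjamini-Hochberg adjusted p under 0.05 over all genes tested. Carrageenan was compared with saline on the common scale in 1 fit of 12 libraries, and cKO with Flox on the deposited scale. An exact permutation test of 3 against 3 libraries cannot go below p = 0.10, so none is given. The script was tested on simulated counts drawn around real means with a set spread. Changed genes were drawn only from those with a mean of at least 20. Dagla (5.82), Mgll (10.3) and Cnr2 (3.73) had lower means, so the shares below do not cover them. A log2 difference of 1 passed the threshold in the right direction for 5% of changed genes in Flox and 6.15% in cKO (treatment). For genotype it did for 3.28% in saline and 13.2% in carrageenan. At a log2 difference of 2 the shares were 81.5%, 70.8%, 59.3% and 75.7%. Alternatives were edgeR 4.0.16 and DESeq2 1.42.0 on whole reads, other pseudocounts, filters and scales, leaving out each library, and blocking. The value after ± for edgeR is not an SE that edgeR reports. It is the size of the log2 difference divided by the square root of its F statistic.

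Named are all 9 endocannabinoid genes, Fabp5, the surrounding genes that passed or had the smallest p, and the 3 genes most correlated with each member of mean at least 20. Of these, 1 correlated gene is not reported here. Members and lists were chosen with earlier results of these data known. Saline and carrageenan libraries carry the same mouse number ranges, and whether the same mice gave both is not stated. Deviations from the group means correlated within same-numbered pairs at 0.238, 0.485 and 0.579 in cKO, which met the check of pairing although the test given first has no block, and at 0.0312, -0.025 and 0.108 in Flox, which did not. The cKO pairs with unlike numbers ran from -0.523 to 0.327, so the highest of them was above the lowest same-numbered pair. Whether pools of a group came from separate experiments is not given either, so p-values measure the spread between these pools. Depth sets the precision of low genes, and intervals on pooled reads cover counting error only.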

Additional observations from a re-analysis of the deposited data

How the results depend on the processing

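Depth limits these results: Abhd6, Napepld and Faah had too few reads for the test, and 1 read in Flox saline 1 was worth 5.55, near the whole level of Dagla, Mgll and Cnr2 in several libraries. Over all settings, 1040 recomputed values kept their direction and their side of the threshold, or, for counts of genes, stayed within 1.5 times. Of the others, 43 changed sign, 60 counts moved by more, 19 lost the threshold and 12 gained it. A value given no adjusted p was counted as not passing. The 1040 include genes that passed in no setting and fits that left out a library outside the comparison. They therefore do not measure how secure the calls are. The averaged fall of Abhd12 passed the threshold in each of the 22 alternatives. The cause of the other changes was not tested.

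The number of endocannabinoid genes called in Flox (1) became 0 with no filter on low values and with edgeR with no filter, and 2 with scaling by library totals, where Abhd6 joined Abhd12 after passing the filter through its saline libraries, in which it is high. In cKO (1) it became 2 with edgeR and with DESeq2, 3 with edgeR with no filter, and 0 with no filter and with the replicate block. In the average (2) it became 3 with DESeq2 and with scaling by library totals (Abhd6 again), 4 with edgeR with no filter and 1 with the replicate block. Leaving out 1 library gave 0 to 1 in Flox, 0 to 1 in cKO and 1 to 3 in the average. The replicate block, which pairs libraries by mouse number range, met the check of pairing in cKO only. It ended the calls of Abhd12 in cKO (adjusted p = 0.0524) and of Daglb in the average (0.0525, limma) and no other call of these genes.

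Among all genes, the number called with limma in Flox (734) was 418 with no filter and 350 to 1078 with 1 library left out. In cKO (271) it was 733 with edgeR, 915 with DESeq2, 139 with no filter, 767 with edgeR with no filter, and 84 to 521 with 1 library left out. In the average (1188) it was 1854 with DESeq2 and 789 to 1547 with 1 library left out. Between genotypes in saline (0) it was 22 with DESeq2 and 53 with edgeR with no filter. In carrageenan (0) it was 7 and 151, and 0 to 420 with 1 library left out. Averaged over treatments (1) it was 65 with edgeR, 254 with DESeq2, 8 with a pseudocount of 5, 0 with no filter, 486 with edgeR with no filter, 0 with the replicate block, and 0 to 230 with 1 library left out. For the difference of responses (0) it was 2 with edgeR with no filter. The edgeR fit with no filter was chosen after seeing the data.

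Signs changed where a log2 difference was near 0 or rested on few reads. For carrageenan against saline in Flox, Mgll was 0.22 with a pseudocount of 0.5. For cKO against Flox, Naaa was -0.0065 in carrageenan with scaling by library totals and 0.083 averaged over treatments with edgeR with no filter, and Mgll was -0.00068 averaged with edgeR. The difference of responses of Dagla was 1.33 with edgeR, 1.15 with DESeq2 and 1.31 with edgeR with no filter. With 1 library left out, the ranges that crossed 0 were, for carrageenan against saline in Flox, -1.71 to 0.0055 for Dagla, -1.44 to 0.79 for Mgll and -0.076 to 1.37 for Cnr2, and in the average -0.34 to 0.38 for Cnr2. For cKO against Flox they were -0.23 to 0.0079 for Naaa and -0.10 to 2.16 for Mgll in saline, -0.083 to 0.17 for Naaa and -1.35 to 0.14 for Mgll in carrageenan, and -0.091 to 0.035 for Naaa and -0.46 to 0.74 for Mgll averaged over treatments. For the difference of responses they were -0.94 to 0.81 for Dagla, -0.54 to 0.29 for Daglb and -0.24 to 0.068 for Abhd12.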
